A study of Mus musculus with 80 samples.

Results

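Liver of FGF21 KO mice was compared with liver of WT mice, each with 5 RNA-seq libraries, which makes 10 of the 80 libraries of the series and 10 of its 20 liver libraries. The libraries were taken by their labels, as those of liver tissue with the genotype FGF21 KO or WT. All mice were male, on the C57BL/6J background, bred and raised at 30 °C, and moved at 10 to 12 weeks of age to room temperature and a high fat diet for 3 weeks. Food was withdrawn 2 to 3 h before the tissues were taken. The other liver libraries, 5 from UCP1 KO mice and 5 from mice lacking both genes (dKO, spelled UCP1/FGF12 double KO in the labels), shared this treatment and served as a second pair with and without Fgf21. All 4 genotypes descended from 1 cross of homozygous UCP1 KO and FGF21 KO mice and were then kept as homozygous matings, so genotype and breeding line cannot be told apart. The study asked what endogenous FGF21 does in the obesity resistance of UCP1 KO mice, and the WT and FGF21 KO pair shows the liver without Fgf21 where UCP1 is intact.

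FGF21 is a hormone that the liver secretes on fasting, on low protein intake and under stress. It signals through FGF receptors that are joined by beta-klotho (Klb), and its transcription in hepatocytes is driven by PPAR alpha and by the stress factor ATF4, among others. The main targets of the circulating hormone are adipose tissue and the brain, whereas hepatocytes themselves express Klb together with Fgfr4, the pair that receives the bile acid hormone FGF15.

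Liver libraries held 28691377 to 41371506 reads on genes, with medians of 34837502 in WT and 38218622 in FGF21 KO. The 8 hepatocyte markers summed to 109510 to 114943 CPM (reads per 1000000 reads of the scaled library) in WT, against 90171 to 118752 CPM in FGF21 KO, and none of the 8 was at unadjusted p under 0.05. Skeletal muscle genes did set libraries apart, and liver genes are therefore described apart from muscle genes throughout. A gene was marked as a muscle gene where its mean CPM in the 20 skeletal muscle libraries was at least 100 times its median CPM in the liver of UCP1 KO and dKO mice, whose levels are not part of the fold change between FGF21 KO and WT, though they share in the estimate of its spread.

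The Fgf21 gene lies on the minus strand of chr7:45613890-45615490 (GRCm38). Its promoter and that of Rasip1, a gene 12047 bases away, are shown because Fgf21 is the deleted gene and Rasip1 is the nearest gene that the test covers. Each sequence runs 5′ to 3′ on the gene's own strand, 250 bases before to 50 bases after the start in RefSeq (GRCm38.p6), from chr7:45615441-45615740 for Fgf21 and chr7:45627287-45627586 for Rasip1. Capitals mark matches on either strand to TGATGNAA, the core of the amino acid response element that ATF4 binds, and to the E-box CACGTG. The motifs did not overlap each other.
Fgf21: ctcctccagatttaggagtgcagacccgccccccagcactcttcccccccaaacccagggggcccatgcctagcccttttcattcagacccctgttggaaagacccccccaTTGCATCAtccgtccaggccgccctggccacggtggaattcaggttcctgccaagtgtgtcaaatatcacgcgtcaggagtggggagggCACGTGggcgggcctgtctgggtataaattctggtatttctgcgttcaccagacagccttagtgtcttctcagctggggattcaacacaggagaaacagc
Rasip1: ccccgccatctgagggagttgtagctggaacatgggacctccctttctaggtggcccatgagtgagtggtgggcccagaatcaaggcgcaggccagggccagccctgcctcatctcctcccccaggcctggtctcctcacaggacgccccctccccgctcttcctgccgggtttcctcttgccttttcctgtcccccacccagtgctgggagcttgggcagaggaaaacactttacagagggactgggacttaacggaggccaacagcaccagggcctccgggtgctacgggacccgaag
The Fgf21 promoter holds 1 match to the ATF4 core, on its minus strand, 132 to 139 bases before the start, and 1 E-box. Of 32851 mouse promoters of this length, 3.97% hold the ATF4 core and 7.15% hold the E-box. The Rasip1 promoter holds neither motif in this window.

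Fgf21 itself fell in liver of FGF21 KO mice. WT libraries 1 to 5 held 51, 53, 51, 107 and 57 reads on Fgf21, or 1.37, 1.58, 1.45, 2.63 and 1.75 CPM. FGF21 KO libraries held 2, 0, 0, 2 and 0 reads, at most 0.0576 CPM. The groups lay far apart, and with 3 reads per library as the floor the level was at least 22.2-fold lower in FGF21 KO (edgeR quasi-likelihood test, adjusted p = 1.69e-06). In the second pair, UCP1 KO libraries held 29 to 84 reads and dKO libraries 1 to 3, at least 24.9-fold lower (adjusted p = 3.03e-06). Fgf21 reads thus matched the Fgf21 genotype in the labels of all 20 liver libraries, but they do not tell WT from UCP1 KO or FGF21 KO from dKO. Ucp1 stood at 0.801 to 1.54 CPM in UCP1 KO liver and at 0.238 to 0.922 CPM in WT, and gave no check of the UCP1 genotype in this tissue.

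Across all 14407 genes tested, 33 were called at an adjusted p under 0.01, which is 0.229% of the genes. Of these, 2 were higher in FGF21 KO (0.0139%) and 31 were lower (0.215%). Muscle genes made up 30 of the 33, all lower, although only 185 of the tested genes carried the muscle mark. The 3 remaining genes were Fgf21, Mup12 and Fam184a. The number of calls rested on single libraries: it was 6 without WT library 1, 2 or 3, 7 without WT library 4 or FGF21 KO library 2, 1 without FGF21 KO library 3, 4 without library 4 and 9 without library 5. It was 29 without FGF21 KO library 1 and rose to 48 without WT library 5. The fold change of Ckm, a muscle gene, moved little as calls were lost. Without 1 WT or FGF21 KO library, it lay between -2.44 and -2.05 on the log2 scale, at an adjusted p of at most 0.0127. Fitted on the 10 WT and FGF21 KO libraries alone, 2 genes were called, Fgf21 and Susd4.

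The called muscle genes included contractile proteins, a creatine kinase and myoglobin. Ckm, the muscle creatine kinase, stood at 10.9, 9.95, 11.8, 15 and 3.60 CPM in WT libraries 1 to 5. In FGF21 KO it stood at 3.03, 1.63, 1.71, 1.90 and 2.71 CPM. Libraries 1 to 4 of WT were high, library 5 was close to FGF21 KO, and the log2 fold change, FGF21 KO minus WT, was -2.23 ± 0.30 (SE, adjusted p = 0.00176). Acta1, skeletal muscle actin, ran from 12.2 to 17.8 CPM in WT libraries 1 to 4 and was 5.10 CPM in WT library 5, against 2.57 to 4.67 CPM in FGF21 KO. Its log2 fold change was -2.04 ± 0.28 (adjusted p = 0.00193). Mylk4, a muscle myosin kinase, Myom2, an M-band protein, and Mb, myoglobin, completed the 5 muscle genes with the lowest p, with log2 fold changes of -2.12, -2.51 and -2.20.

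All 10 genes of the skeletal muscle list were lower in FGF21 KO and 7 of them were called: Ckm, Acta1, the troponins Tnnt3 (-2.16), Tnni2 (-2.12) and Tnnc2 (-2.10), the fast myosin Myh4 (-2.18) and parvalbumin (Pvalb, -2.13). The myosin light chain Mylpf (-1.52, adjusted p = 0.0183), Myh1 (-1.96, adjusted p = 0.0105) and Actn3 (-2.04, adjusted p = 0.0138) were not called. The list median was -2.11, against -0.0062 over all genes tested. Members of the slow fibre list stayed low, with 2 of 6 passing the filter and summed levels of 0.537 to 1.35 CPM in WT and 0.692 to 1.68 CPM in FGF21 KO. The heart list had 2 of 6 members tested, neither at unadjusted p under 0.05.

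Summed over the 10 genes, the level was 104, 104, 120, 153 and 35.5 CPM in WT libraries 1 to 5 and 18.7 to 38.4 CPM in FGF21 KO. It was 22.2 to 39.1 CPM in UCP1 KO and 19.3 to 48.9 CPM in dKO. WT libraries 1 to 4 stood above all other liver libraries, and WT library 5 lay inside the range of the other genotypes. The skeletal muscle score, the mean log2 of CPM plus 0.1 over the 10 genes, was 2.82 ± 0.82 (SD, n = 5) in WT and 0.94 ± 0.38 (SD, n = 5) in FGF21 KO. The score was made from genes already known to differ here, so these values are a description. The means in UCP1 KO and dKO were 1.35 and 1.26.

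**Figure D1:**
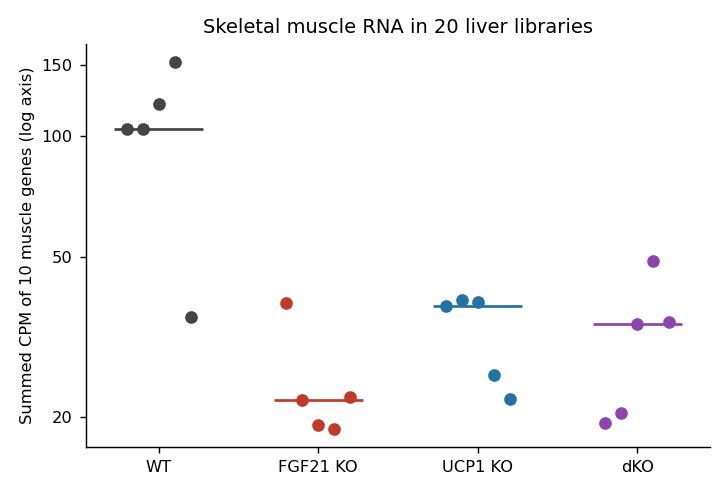
Summed CPM of 10 skeletal muscle genes on a log axis in the 20 liver libraries, with 1 point per library, placed left to right by library number, and a line at the median of each genotype. WT libraries 1 to 4 lie at 104 to 153 CPM and every other library at 48.9 CPM or less.

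The 30 called muscle genes were set against their own level in skeletal muscle. For each library, the CPM of each gene was divided by its mean CPM in the 20 muscle libraries. The median ratio, in ppm (parts in 1000000), was 756, 738, 887 and 1129 in WT libraries 1 to 4, with quartiles of 701 and 816 ppm in library 1 and of 1027 and 1265 ppm in library 4. It was 280 ppm in WT library 5 and 126 to 244 ppm in FGF21 KO. Of the 185 muscle genes tested, 153 were lower in FGF21 KO, 93 of them at unadjusted p under 0.05, and 32 were higher, 1 of them at unadjusted p under 0.05. In bulk tissue, muscle tissue taken along with a sample, the number of muscle cells and the RNA per cell cannot be told apart. The source of the muscle RNA in WT libraries 1 to 4 was not tested. Against WT library 5 alone, the WT library with the lowest score, Ckm stood at -0.73, Acta1 at -0.70, Actn3 at -0.09 and Myh1 at 0.36, as values with no test.

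**Figure D2:**
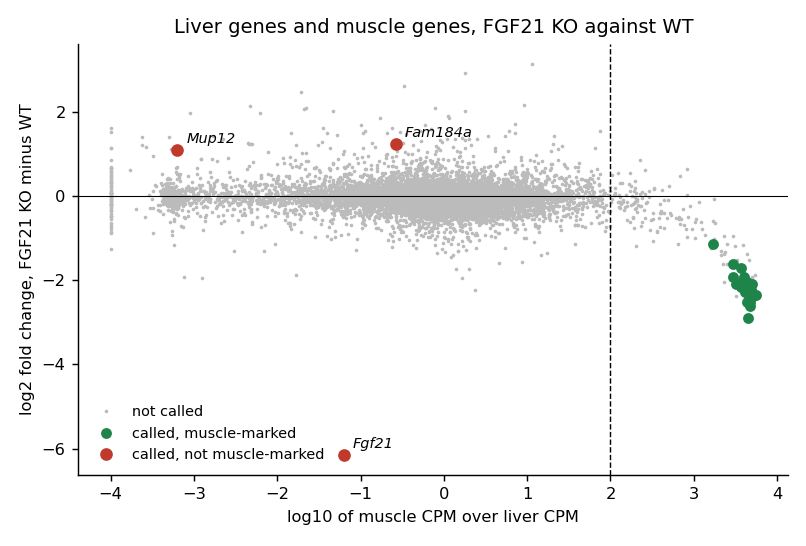
Log2 fold change, FGF21 KO minus WT, of the 14407 genes tested in liver against the log10 of the gene's CPM in muscle over that in UCP1 KO and dKO liver, with the muscle mark at 100 times as a dashed line. The 30 called muscle genes (green) sit together at the right, between -2.91 and -1.14, and the 3 called liver genes (red) lie far to their left.

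Among the 14222 genes without the muscle mark, 3 were called, 2 higher and 1 lower. At unadjusted p under 0.05 there were 992, of which 523 were higher and 469 lower. Over all genes tested, 3.64% were higher and 3.9% lower at that threshold. The libraries of FGF21 KO and WT did not overlap for 196 liver genes, 121 higher and 75 lower, and for 1.56% of all genes tested. Genes below are named for their rank by p, so their fold changes are a description of the top of that ranking.

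Mup12, on chromosome 4, encodes 1 of the major urinary proteins, small pheromone carriers that male mouse liver secretes in bulk. It stood at 17.3, 20.4, 20.2, 27.4 and 17.6 CPM in WT and at 48.8, 33.8, 46.6, 55.8 and 33.9 CPM in FGF21 KO. All FGF21 KO libraries were above all WT libraries, with a log2 fold change of 1.09 ± 0.16 (adjusted p = 0.00312). That adjusted p was reached in a ranking that the muscle genes lead, and with muscle genes removed before the fit it was 0.0103. Mup12 lost its call without WT library 1, 2 or 3 and without FGF21 KO library 3 or 4, at adjusted p of 0.0106 to 0.0147. UCP1 KO ran from 13.7 to 22.6 CPM and dKO from 18.7 to 26.4 CPM, so the level of FGF21 KO was not seen in the second line without Fgf21 (log2 fold change, dKO minus UCP1 KO, 0.18, unadjusted p = 0.272). The difference between the pairs was not called (interaction, adjusted p = 0.322).

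Mup genes are near-identical copies, and how reads were shared among them is uncertain, so single members are given with that limit. Of 19 Mup genes tested, 16 were higher in FGF21 KO and 3 were lower. Of the higher ones, 4, Mup12 included, were at unadjusted p under 0.05, and none of the lower ones was. Over all genes tested, 3.64% were higher at that limit. Besides Mup12, the 4 held Mup1, with 90.9 to 146 CPM in WT and 180 to 298 CPM in FGF21 KO, Mup14 (log2 fold change 0.58) and Mup18 (1.17). Mup3 and Mup20 stood at -0.15 and 0.04. In dKO against UCP1 KO the family ran the other way, with 17 of the 19 lower, 5 of them at unadjusted p under 0.05 (Mup2, Mup11, Mup13, Mup15 and Mup21), and none higher at that limit. Over all genes tested in that pair, 4.51% were lower at that limit. The family was looked at after the value of Mup12 was known.

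Fam184a, on chromosome 10, was the other gene called higher. It stood at 0.510, 0.745, 0.769, 0.491 and 0.338 CPM in WT and at 0.922, 1.29, 2.01, 1.41 and 1.13 CPM in FGF21 KO. The groups did not overlap, at low levels, and the log2 fold change was 1.24 ± 0.22 (adjusted p = 0.00924). UCP1 KO (0.933 to 1.24 CPM) lay above all WT libraries, and dKO (0.721 to 1.12 CPM) overlapped WT. Both UCP1 KO and dKO overlapped FGF21 KO. The call held without FGF21 KO library 1 and was lost without any other WT or FGF21 KO library (adjusted p up to 0.0425), and with muscle genes removed the adjusted p was 0.108.

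Nnt, the mitochondrial transhydrogenase that makes NADPH, was among the genes just past the threshold. C57BL/6J mice are known to carry a deletion within this gene. It stood at 49.7, 44.4, 46.1, 44.6 and 49.9 CPM in WT and at 88.5, 127, 118, 80.5 and 80.5 CPM in FGF21 KO. The WT libraries were close together, every FGF21 KO library was above them, and the log2 fold change was 1.07 ± 0.21 (adjusted p = 0.0148). UCP1 KO ran from 42.5 to 101 CPM and dKO from 50.1 to 92.2 CPM. UCP1 KO library 3 (101 CPM) and dKO libraries 2 and 4 (92.2 and 88.1 CPM) lay within the FGF21 KO range. The lowest UCP1 KO library lay just below the WT range and the lowest dKO library just above it. Which Nnt allele each mouse carried was not tested.

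The other tissues were read for the 10 higher and 9 lower named liver genes of lowest p, with the deleted gene Fgf21 left out. In skeletal muscle 9 of the 15 that were tested had the same sign as in liver, in brown fat (BAT) 11 of 15 and in inguinal white fat (iWAT) 10 of 17, and none was called. In either direction, 3 of 15, 4 of 15 and 4 of 17 were at unadjusted p under 0.05, beside 12.9%, 8.55% and 17.4% of all genes tested in muscle, BAT and iWAT. Fgf21 itself was below the filter in muscle and lower in BAT and iWAT at unadjusted p of 3.89e-05 and 0.00334. Values of the opposite sign included Plin1 (-0.74), Gnai1 (-0.70) and Cidea (-0.90) in iWAT and Fam184a (-0.62, unadjusted p = 0.0452) in BAT. Nnt, chosen after these values were seen, was higher in FGF21 KO in all 3 tissues, with no overlap between the groups. In skeletal muscle it stood at 18.4 to 42.6 CPM in WT and 56.2 to 131 CPM in FGF21 KO (log2 fold change 1.79, adjusted p = 0.0288). In iWAT the ranges were 17.1 to 21 and 25.7 to 40.5 CPM (0.75, adjusted p = 0.209), and in BAT 1.92 to 3.29 and 3.58 to 6.28 CPM (0.94, adjusted p = 0.494). The second pair overlapped in all 3, at 19 to 66.4 CPM in UCP1 KO and 21.4 to 49.0 CPM in dKO in muscle, 10.3 to 20.8 and 12.2 to 22.7 CPM in iWAT, and 2.01 to 8.82 and 2.04 to 7.47 CPM in BAT. In each of the 4 tissues, FGF21 KO libraries 2 and 3 were the highest of their group. Library numbers only follow the order of deposit, and the labels do not say which libraries came from the same mouse.

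Wdfy1, an adaptor of Toll-like receptor signalling on endosomes, was also higher in FGF21 KO in liver and in the other tissues. In liver it stood at 15.1, 17.7, 14.6, 13.9 and 14.3 CPM in WT and at 27.1, 16, 36.4, 24.3 and 26.4 CPM in FGF21 KO. Library 2 of FGF21 KO was at the WT level and the others were above it, with a log2 fold change of 0.78 ± 0.18 (adjusted p = 0.0969). FGF21 KO library 2 was the lowest and library 3 the highest of the group in muscle, BAT and iWAT as well. The log2 fold changes there were 1.00, 1.20 and 0.74, at adjusted p of 0.0314, 0.113 and 0.182. In the second pair, dKO and UCP1 KO did not overlap in iWAT, at 25 to 39.9 and 17.5 to 22.5 CPM. They overlapped in muscle, at 9.82 to 20.1 and 7.92 to 11.5 CPM, and in BAT, at 14.9 to 36.5 and 12.7 to 21.9 CPM. In muscle and BAT, dKO library 1 alone lay within the UCP1 KO range. In liver of dKO mice Wdfy1 ran from 12.5 to 26.2 CPM against 13.6 to 18 CPM in UCP1 KO (0.40, unadjusted p = 0.0436).

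**Figure D3:**
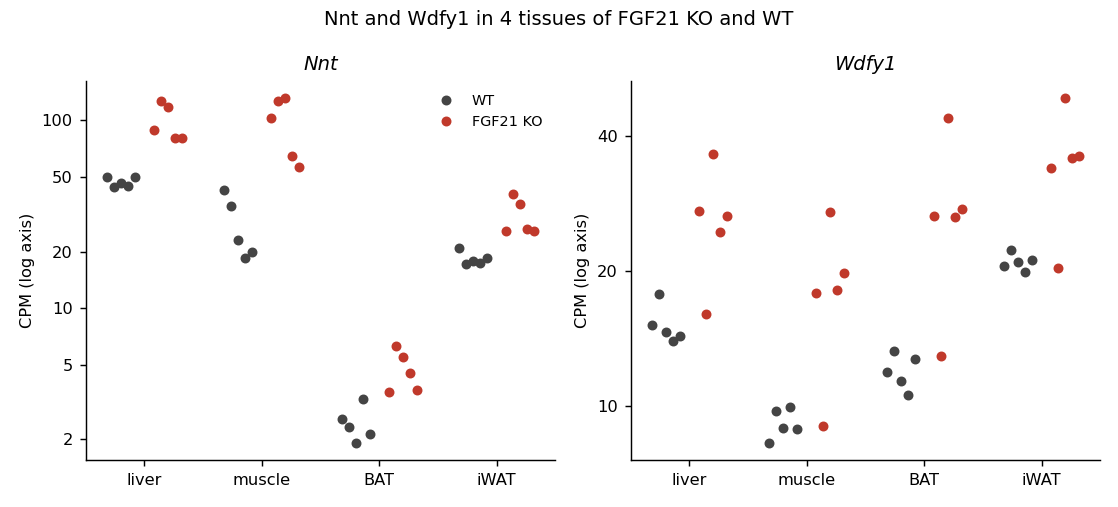
CPM of Nnt (left) and Wdfy1 (right) on log axes in liver, muscle, BAT and iWAT of WT and FGF21 KO, with 1 point per library and libraries 1 to 5 from left to right in each group. Nnt is above every WT library in all FGF21 KO libraries of each tissue, and FGF21 KO library 2 has the lowest Wdfy1 of its group in each tissue.

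Genes of lipid droplets came next. Plin1, the perilipin that coats droplets in adipocytes, stood at 0.483, 0.268, 0.399, 0.442 and 0.307 CPM in WT and at 0.749, 0.840, 0.560, 1.19 and 1.02 CPM in FGF21 KO. There was no overlap, with a log2 fold change of 1.18 ± 0.24 (adjusted p = 0.0273). Cidea, which drives the fusion of lipid droplets, stood at 0.241, 0.387, 0.285, 0.246 and 0.676 CPM in WT and at 1.27, 1.10, 0.891, 0.989 and 0.913 CPM in FGF21 KO (1.5 ± 0.35, adjusted p = 0.099). Here too the groups did not overlap, and WT library 5 was the nearest. Both genes were higher in the second pair as well, Cidea by 1.37 (unadjusted p = 0.000988) and Plin1 by 0.63 (unadjusted p = 0.0201).

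Mogat1, which makes diacylglycerol in steatotic liver, stood at 0.246 to 0.328 CPM in WT and at 1.64, 0.919, 0.662, 0.816 and 0.161 CPM in FGF21 KO (log2 fold change 1.60 ± 0.49, adjusted p = 0.351). FGF21 KO library 5 lay below WT and the other 4 above it. In dKO against UCP1 KO the log2 fold change was 2.11 (unadjusted p = 0.000512). These 3 genes are also expressed in fat cells, so the fat markers are given beside them. Of the adipocyte list, 5 of 7 genes were tested and 5 were higher, 2 of them (Plin1 and Fabp4, 0.33) at unadjusted p under 0.05. Over all genes tested, 3.64% were higher at that limit. Adiponectin (Adipoq), a defining gene, was at 0.566 to 1.13 CPM in WT and had a median of 0.735 and a highest value of 1.61 CPM in FGF21 KO (log2 fold change 0.26, unadjusted p = 0.456). The summed adipocyte list ran from 10.9 to 14.7 CPM in WT and from 14.2 to 19.3 CPM in FGF21 KO.

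Of the brown adipocyte list, all 6 genes were tested and higher, 3 at unadjusted p under 0.05 (3.64% of all genes). These were Cidea, Ucp1 (1.43, with 0.238 to 0.922 CPM in WT and up to 2.93 CPM in FGF21 KO) and the channel Kcnk3 (1.09). Elovl3, which liver also expresses, stood at 0.03. No gene of the list was at 0 in every library of a group. The mean log2 level of the list ran from 0.833 to 1.44 in WT libraries, below the 1.61 to 1.98 of FGF21 KO, with no overlap. It ran from 0.653 to 1.32 in UCP1 KO and from 0.994 to 1.95 in dKO, where these groups overlapped and dKO libraries 1 and 2 lay at the WT level. The part of fat cells in the values of Plin1, Cidea and Mogat1 was not tested.

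Among the other genes of the upper 10, Nat8, an N-acetyltransferase of mercapturate formation, stood at 6.60 to 9.58 CPM in WT and at 16.6, 15.5, 15.3, 14.5 and 9.32 CPM in FGF21 KO (0.88 ± 0.18, adjusted p = 0.0347). Gnai1, an inhibitory G protein subunit, stood at 0.832 to 1.62 CPM in WT and at 4.12, 3.20, 3.28, 4.53 and 1.37 CPM in FGF21 KO (1.37 ± 0.29, adjusted p = 0.0369). In both genes FGF21 KO library 5 lay within the WT range and the other 4 lay above it. Susd4, a complement regulator, stood at 11.9 to 16.9 CPM in WT and at 23.5 to 32.3 CPM in FGF21 KO (1.05 ± 0.25, adjusted p = 0.102), and Parp3, an ADP-ribosyltransferase of DNA repair, at 27.1 to 31.3 and 35.7 to 41.8 CPM (0.38 ± 0.09, adjusted p = 0.0827). Neither gene overlapped between the groups.

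Trhde, the peptidase that degrades thyrotropin-releasing hormone, followed outside the upper 10. It stood at 1.45 to 2.04 CPM in WT and at 5.07, 4.65, 4.38, 4.55 and 1.85 CPM in FGF21 KO (1.27 ± 0.30, adjusted p = 0.102), so FGF21 KO library 5 again lay with WT. The dKO libraries, at 2.20 to 5.23 CPM, were all above the UCP1 KO libraries, at 0.539 to 2.19 CPM (1.24, unadjusted p = 0.000732). The gene 2610305D13Rik, singled out after its values were seen, had the same split: 0.149 to 0.442 CPM in WT, 3.37, 3.81, 2.09 and 3.46 CPM in FGF21 KO libraries 1 to 4 and 0.215 CPM in library 5 (adjusted p = 0.0143).

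Fgf21 apart, edgeR called no gene lower in FGF21 KO that passed the low-count filter and had no muscle mark, while DESeq2 called Ogt (adjusted p = 0.00569) and the uncharacterised AK155877. Ogt, which attaches O-linked N-acetylglucosamine to proteins, stood at 101 to 121 CPM in WT and 87.3 to 97.4 CPM in FGF21 KO, with no overlap (log2 fold change -0.29 ± 0.07, adjusted p = 0.0654). Ahnak, a large scaffold protein (-0.54), Fam46a, a poly(A) polymerase (-0.87), Postn, the matrix protein periostin (-0.88), Rnf103, a ubiquitin ligase (-0.27), and Phf11d (-0.64) also ranked among the lower 10. Their adjusted p ran from 0.099 to 0.255. The lipid transporter Abca8a stood at 127 to 204 CPM in WT and at 95.4 to 139 CPM in FGF21 KO (-0.65 ± 0.18, adjusted p = 0.249). Pls1, an actin bundler, stood at 3.10 to 4.52 CPM in WT and 0.495 to 2.74 CPM in FGF21 KO (-1.30 ± 0.36, adjusted p = 0.255). None of the named genes passed the threshold in edgeR.

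**Figure D4:**
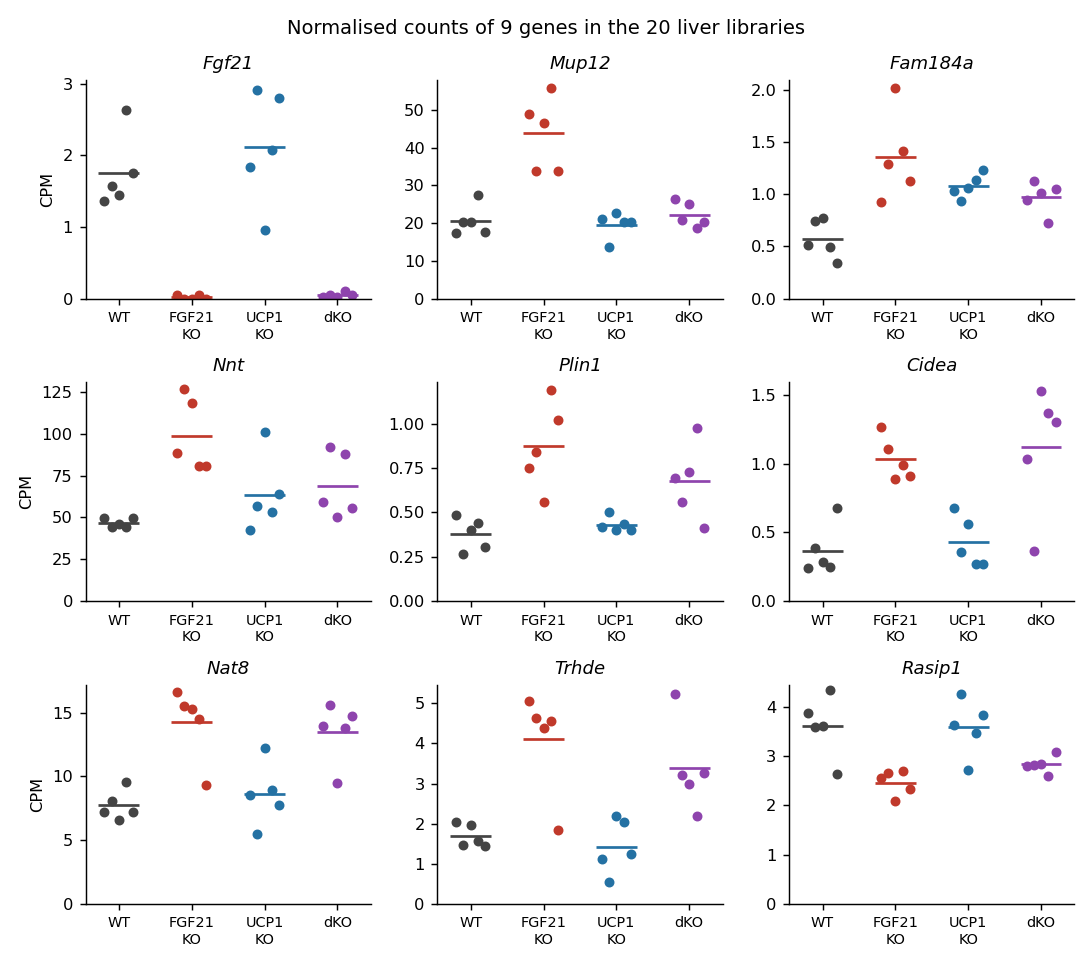
CPM of 9 genes in the 20 liver libraries, with 1 point per library, libraries 1 to 5 from left to right, and a line at the mean of each genotype. Fgf21 is near 0 in FGF21 KO and dKO, Mup12 is high in FGF21 KO alone, and Plin1, Cidea, Nat8 and Trhde have higher means in both groups without Fgf21.

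The second pair, dKO against UCP1 KO, shares no library with the first and asked whether these liver genes moved wherever Fgf21 was lost. In that pair 1 gene was called (0.00694%), Fgf21, and 538 genes (3.73%) were higher and 650 (4.51%) lower at unadjusted p under 0.05. Of the 27 liver genes at unadjusted p under 0.001 in FGF21 KO against WT, 21 had the same sign in dKO against UCP1 KO. Of these 27, 11 were at unadjusted p under 0.05 with the same sign, and none was with the opposite sign. Of all genes tested, 3.73% were higher and 4.51% lower at that limit. Fgf21, deleted in both pairs by design, is counted among the 27, the 21 and the 11. Apart from Fgf21 and the genes above (Plin1, Nat8, Gnai1, Wdfy1, Cidea and Trhde), the named ones were Cpox, an enzyme of haem synthesis, and Rasip1.

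Cpox stood at 115 to 130 CPM in WT and 143 to 172 CPM in FGF21 KO, with no overlap (0.39 ± 0.10, adjusted p = 0.12), and at 95.7 to 137 CPM in UCP1 KO and 128 to 159 CPM in dKO (0.25, unadjusted p = 0.0149). At the wider limit of unadjusted p under 0.01 in the first pair there were 223 liver genes, of which 169 had the same sign in the second pair. There, 46 were at unadjusted p under 0.05 with the same sign, Fgf21 again among them, and 4 with the opposite sign. Over all 14222 liver genes, 55.1% had the same sign in both pairs, and the fold changes had a Pearson correlation of 0.17 across genes. Library scaling is shared by all genes of a pair, genes are not replicates of each other.

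**Figure D5:**
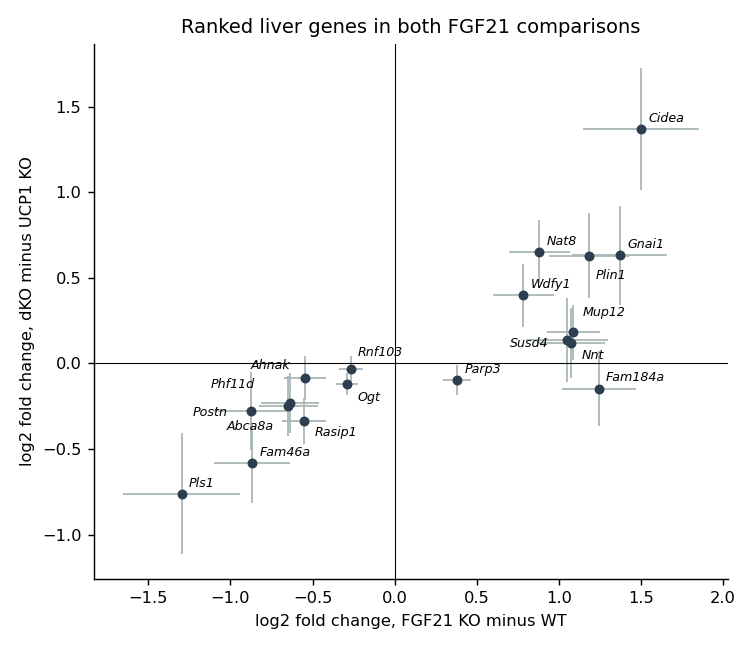
Log2 fold changes with their standard errors for the 10 higher and 9 lower named liver genes with the lowest p in FGF21 KO against WT (Fgf21 and genes with uncharacterised names left out), with FGF21 KO minus WT on the x axis and dKO minus UCP1 KO on the y axis. All 9 lower genes and 8 of the 10 higher genes have the same sign in both, Parp3 and Fam184a being the exceptions.

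No gene was called for the interaction, the difference between the pairs (edgeR, 743 at unadjusted p under 0.05, 72 of them muscle genes), while DESeq2 called 9. The gene with the lowest adjusted p was Mb, a muscle gene (0.0468). The 5 liver genes with the lowest p in dKO against UCP1 KO were Fgf21, Fkbp11, a folding protein of the endoplasmic reticulum, gamma-actin (Actg1), Saa3 and Gstt3. In FGF21 KO against WT the last 4 stood at 0.03, 0.29, 0.11 and 0.49, at unadjusted p of 0.865, 0.0318, 0.866 and 0.0672. None of these 4 was called in either pair in edgeR.

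The neighbours of Fgf21 on chromosome 7 were then examined. Rasip1, a Ras-interacting protein of endothelial junctions, starts 12047 bases from Fgf21. It stood at 3.89, 3.60, 3.62, 4.35 and 2.64 CPM in WT and at 2.56, 2.65, 2.09, 2.70 and 2.34 CPM in FGF21 KO (log2 fold change -0.55 ± 0.13, adjusted p = 0.11). WT library 5 lay within the FGF21 KO range. In the second pair it stood at 2.72 to 4.27 CPM in UCP1 KO and 2.60 to 3.10 CPM in dKO (-0.34, unadjusted p = 0.0206). Plekha4, 59661 bases away on the other side, stood at -0.62 (unadjusted p = 0.0118) and, in the second pair, at -0.50 (unadjusted p = 0.0324). Nearer on that side, Bcat2, 24180 bases away, stood at -0.01 (unadjusted p = 0.954) and -0.12 (unadjusted p = 0.485). The uncharacterised 0610005C13Rik, 38714 bases away, stood at -0.02 (unadjusted p = 0.785) and -0.23 (unadjusted p = 0.00943).

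Rasip1 was lower in FGF21 KO in the other tissues as well. In skeletal muscle it stood at 9.58, 9.90, 8.70, 8.68 and 7.24 CPM in WT and at 6.50, 6, 5.50, 5.27 and 5.02 CPM in FGF21 KO (log2 fold change -0.64 ± 0.11, adjusted p = 0.0245). In BAT the ranges were 28.5 to 32.8 and 18.2 to 22.7 CPM (-0.55 ± 0.09, adjusted p = 0.0779). In both tissues the groups were clear of each other, and dKO lay below UCP1 KO, at 4.79 to 6.57 against 7.84 to 10.9 CPM in muscle and 17.7 to 21.4 against 21.5 to 33.2 CPM in BAT. In iWAT the ranges of 28.4 to 60.3 CPM in WT and 15 to 28.8 CPM in FGF21 KO met at their ends (-1.11 ± 0.21, adjusted p = 0.115), and dKO, at 23.6 to 38.5 CPM, overlapped UCP1 KO, at 29.0 to 46.4 CPM. None of these values passed the adjusted threshold of 0.01. Rasip1 in other tissues was looked at after its liver values were known.

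Between Fgf21 and Rasip1 lie Fut1, a fucosyltransferase gene 2116 bases from Fgf21, and Izumo1, a sperm-egg fusion gene. Both were below the filter and were looked at after their values were seen. Fut1 had 7, 4, 11, 5 and 7 reads in the WT liver libraries and 6, 8, 10, 8 and 11 in UCP1 KO, and no read in any of the 10 libraries without Fgf21. With 3 reads per library as the floor it was at least 2.42-fold lower in FGF21 KO and at least 3.40-fold lower in dKO. Without the low-count filter, over 21454 genes, it was called in both pairs (adjusted p = 0.0028 and 0.00499). The other tissues differed from liver: Fut1 had 29 reads in the 10 iWAT libraries with Fgf21 and 260 in the 10 without it, and 12 and 20 in muscle. In BAT it had 2 reads in WT and 28 in FGF21 KO, but 134 in UCP1 KO and 42 in dKO. Izumo1 had 33 reads in WT and 17 in FGF21 KO liver, and 35 in UCP1 KO and 17 in dKO.

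In the wider window of 10 Mb to each side, 126 genes besides Fgf21 were tested. The lone called gene was Mybpc2, a muscle gene (-2.00, adjusted p = 0.00792). At unadjusted p under 0.05 there were 6 higher and 6 lower, 9.52% of the window against 7.54% of all genes, with a median log2 fold change of 0.03. Of these, Hrc carries the muscle mark (-2.36), and Nav2 (0.67, unadjusted p = 0.00125) and Dpy19l3 (0.83, unadjusted p = 0.00218) completed the 5 with the lowest p.

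The receptors and downstream genes of FGF21 in liver were the next question. Of 22 tested genes of FGF21 signalling, Fgf21 was called, and 1 other, the adaptor Shc1 (0.16, unadjusted p = 0.015), was at unadjusted p under 0.05. The co-receptor Klb stood at 36.0 ± 8.9 CPM (SD, n = 5) in WT with a log2 fold change of -0.21 ± 0.18 (SE). The receptors Fgfr1, Fgfr2, Fgfr3 and Fgfr4 stood at 0.42, -0.08, 0.13 and 0.27. The adaptors Frs2, Grb2, Gab1 and Sos1 stood at -0.07, 0.07, -0.07 and -0.18. The feedback inhibitors Spry1, Spry2, Spry4, Spred1, Spred2, Dusp4 and Dusp6 lay between -0.49 (Dusp6) and 0.08 (Dusp4). The early response genes Egr1, Fos, Etv5 and Ier3 stood at -0.56 ± 0.75, 0.48 ± 0.52, 0.16 ± 0.17 and 0.04 ± 0.34. The list median was 0.0058, close to that of all genes.

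None of the 15 regulators of Fgf21 transcription was at unadjusted p under 0.05. Ppara stood at 0.10, its partner Rxra at 0.12, Atf4 at 0.23, the fasting factor Creb3l3 at 0.05, Pparg at 0.65 (unadjusted p = 0.0622) and the glucose sensor Mlxipl at -0.15. None of the 22 PPAR alpha targets was called. The hydroxylases Cyp4a10 and Cyp4a14 stood at -0.38 ± 0.40 and -0.92 ± 0.58, Vnn1 at 0.17, Acot1 at -0.24 and Pex11a at 0.24. The direction of this list was mixed, with 13 higher and 9 lower.

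None of the 21 genes of fatty acid oxidation and ketogenesis was at unadjusted p under 0.05, and all lay between -0.08 and 0.17. The carnitine transferases Cpt1a and Cpt2 stood at 0.14 and 0.11, Acadm at 0.11, Acads at 0.17 and the carrier Slc25a20 at 0.12. Of the 21, 17 were higher by these small amounts. Of 25 genes of lipogenesis and triglyceride synthesis, Mogat1 was higher and Acaca (-0.42, unadjusted p = 0.0332) and Elovl6 (-0.58, unadjusted p = 0.0372) were lower at unadjusted p under 0.05. Fasn, Scd1 and Srebf1 stood at -0.01, 0.04 and 0.14.

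Of 24 genes of cholesterol synthesis and uptake, 22 were higher, with a median log2 fold change of 0.24, and none was called. Hsd17b7 (0.38, unadjusted p = 0.0208) and Mvk (0.37, unadjusted p = 0.0473) are enzymes of the synthesis branch. Sqle, another of its enzymes, stood at 0.25 and Srebf2, the master factor, at 0.25. In the second pair the list median was -0.04. Of 24 genes of bile acid synthesis and transport, the uptake carrier Slc10a1 was lower (-0.23, unadjusted p = 0.0218). The rate-limiting Cyp7a1 stood at -0.30 ± 0.65, Cyp8b1 at 0.16, Nr0b2 at -0.27 and the export pump Abcb11 at -0.18.

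Of 20 genes of glucose and glycogen metabolism, 16 were lower, with a median of -0.18 and none called. G6pc, which releases glucose, stood at -0.83 ± 0.36 (unadjusted p = 0.0325), the phosphorylase Pygl at -0.16 (unadjusted p = 0.0464) and Igfbp1, an insulin-repressed binding protein, at -1.16 ± 0.44 (unadjusted p = 0.0162). Pck1 stood at 0.06 and Pklr at -0.33. In the growth hormone axis Igfbp1 was the only 1 of 15 at unadjusted p under 0.05, with Igf1 at -0.11, Socs2 at -0.50, Ghr at -0.08, Igfals at 0.10 and Socs3 at 1.27 ± 0.64. None of 14 male-biased genes was at that limit: Hsd3b5, Slco1a1, Cyp2d9 and Cyp4a12a stood at -0.16, -0.12, 0.10 and -0.11, Egfr at -0.56 and Cyp7b1 at 0.20.

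Of 20 tested genes of the integrated stress response, 16 were higher and 1 of those, Asns, the asparagine synthetase, was at unadjusted p under 0.05 (1.63 ± 0.76). Atf4 stood at 0.23, Trib3 at 0.01, Ddit3 at 0.27 and Mthfd2 at 0.42. Of 18 genes of the unfolded protein response, 15 were higher, with a median of 0.19. Hyou1 (0.50), Dnajb9 (0.62) and Sel1l (0.31) were at unadjusted p under 0.05, beside Hspa5 at 0.39, Xbp1 at -0.01 and Sdf2l1 at 0.25. In dKO against UCP1 KO the median of this list was -0.20, none was higher at that limit, and Pdia6 (-0.38, unadjusted p = 0.00493) and Hsp90b1 (-0.33, unadjusted p = 0.0448) were lower. No gene of the list was called in either pair.

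Of 23 genes of amino acid catabolism and the urea cycle, Prodh (0.27) and Nags (0.23) were at unadjusted p under 0.05, while Cps1, Otc and Ass1 stood at -0.19, -0.05 and -0.11. None of the 18 clock genes was, with Arntl at -0.43, Per2 at -0.18, Nr1d1 at 0.24, Dbp at 0.03 and Npas2 at -1.03 ± 0.73. Of 24 apolipoprotein and lipoprotein genes, the receptor Lrp1 was higher (0.34, unadjusted p = 0.0293). Apob, Mttp, Apoa4 and Apoa5 stood at -0.03, -0.09, -0.13 and -0.07, and Tm6sf2 at -0.31.

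No acute phase gene of 20 and no xenobiotic gene of 23 was at unadjusted p under 0.05. Saa1, Saa2, Lcn2 and Hp stood at 1.21 ± 0.98, 1.42 ± 1.18, 0.68 and 0.34, Crp at -0.20 and Stat3 at 0.31. Cyp2b10 stood at 1.51 ± 0.82, Cyp3a11 at -0.72 ± 0.58, Cyp2c29 at 0.14, Cyp1a2 at -0.04, Aldh1a1 at 0.37 and Gstt3 at 0.49. The errors of the inducible genes were large. In dKO against UCP1 KO no gene of either list was called. The acute phase median was -0.58, against 0.13 in the first pair, and 8 of 20 were lower at unadjusted p under 0.05 (4.51% of all genes), among them Lcn2 (-2.61), Orm2 (-2.29) and Hp (-0.87). Of the xenobiotic genes 8 of 23 were higher at that limit (3.73% of all genes), among them Cyp2b10 (3.53, unadjusted p = 0.000304), Cyp2c29 (0.82) and Cyp3a11 (1.67), with a median of 0.29 against -0.04. Of 20 secreted factors, Fgf21 was called, and Igfbp1 and the selenium carrier Sepp1 (-0.17) were lower at unadjusted p under 0.05, with Angptl4 at -0.37 and Gdf15 at -0.55 ± 0.76.

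Markers of other liver cells were read as a check of tissue makeup. All 7 sinusoidal endothelial genes were lower in FGF21 KO, none called and 3 at unadjusted p under 0.05: Clec4g (-0.37), Lyve1 (-0.70) and Oit3 (-0.46). Over all genes tested, 3.9% were lower at that limit. Their summed level ran from 187 to 338 CPM in WT and from 167 to 233 CPM in FGF21 KO, and none of them was at 0. All 10 stellate cell genes were lower too, with Col1a2 (-0.42) and Col3a1 (-0.46) at unadjusted p under 0.05 and sums of 270 to 589 and 277 to 385 CPM. Rasip1 and Postn above are genes of endothelial and stromal cells, and the part of cell makeup in their values was not tested. In the second pair the medians of these lists were 0.22 and 0.08. There, 3 stellate genes were lower at unadjusted p under 0.05, Col1a1 (-0.57), Col1a2 (-0.37) and Col3a1 (-0.51). The endothelial gene Oit3 was higher in that pair (0.42, unadjusted p = 0.0193).

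Of 8 Kupffer cell genes, Marco (2.14) was at unadjusted p under 0.05, and its highest value of 102 CPM in FGF21 KO stood beside a median of 7.06 CPM. Of 6 smooth muscle genes, Cnn1 (1.44) and Des (-0.45) were at that limit, in opposite directions. None of the tested lymphocyte, erythroid, neutrophil, cholangiocyte, mesothelium, pancreatic or intestinal genes was.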

How the data were processed

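Poly(A) RNA of 80 samples from 4 tissues was sequenced as paired ends from stranded libraries. The authors aligned reads with STAR to mm10 and counted them per gene with HTSeq on UCSC known genes, and the deposited values are raw read counts for 32765 gene names per sample. The strand setting of the counting is not given in the sources used here, so overlapping genes, and near-identical copies such as the Mup genes, are uncertain. The files hold no columns of the authors' comparisons.

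All 20 liver libraries were fitted together with edgeR 4.0.16 in R 4.3.3 (limma 3.58.1), with TMM scaling, 1 mean per genotype and the quasi-likelihood test. Genes were tested if 1 library held over 15 reads, the libraries over 75 in sum, and at most 10 libraries none. P-values were adjusted by Benjamini-Hochberg over all genes tested, and genes with an adjusted p under 0.01 are called. Other tissues were fitted the same way, each alone. The muscle mark adds 0.01 CPM to the liver median. Scripts were tested on simulated data.

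Named genes are Fgf21 with its signalling list, the 3 called liver genes, the 5 muscle genes of lowest p with the muscle list, the 10 higher and 10 lower liver genes of lowest p, passing over uncharacterised names (clone, Gm and Rik names, such as 2610305D13Rik, higher at adjusted p = 0.0143), the first members of each list and those of lowest p, and genes near Fgf21. Some list members are not reported here. Members and lists were chosen with earlier results of these data known. Libraries are numbered in order of deposit and pair nothing, and the labels name no mice, so p-values measure the spread between samples. Replicate pairs differed beyond sampling noise (chi-square per degree of freedom 24.9 to 161 over 40 pairs). Alternatives were DESeq2 1.42.0, RLE scaling, no filter, a threshold of 0.05, only the genotypes compared, the muscle score as a covariate, muscle genes removed, a mark at 10 times, and leaving out libraries.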

Additional observations from a re-analysis of the deposited data

Results flagged for a closer look

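Of 42 groups of 5 libraries checked for a library far from the rest, 3 held one, and about 2.1 are expected when 1 in 20 groups is marked by chance. The skeletal muscle score of WT library 5 was 1.41, below the 2.98 to 3.52 of the other WT libraries. The same score in FGF21 KO library 1 was 1.60, above the 0.664 to 0.865 of the other FGF21 KO libraries. Abca8a stood at 139 CPM in FGF21 KO library 2, above 95.4 to 107 CPM in the others.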

How the results depend on the processing

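Against 33 calls (30 muscle, 3 liver), 1 in dKO against UCP1 KO and 0 for the interaction, DESeq2 gave 55 (43 and 12), 6 and 9, and an adjusted p under 0.05 gave 52 (44 and 8), 3 and 1. With only the genotypes compared there were 2 calls, 0 of them muscle genes. With the muscle score as a covariate, and without WT libraries 1 to 4 (1 WT library left), there was 1 call, Fgf21, and 0 muscle genes. With muscle genes removed there was 1 call, since fewer low p-values rank ahead. Without the filter, dKO against UCP1 KO had 2. Leaving out 1 library gave 1 to 48 calls, 0 to 45 muscle, 1 to 4 liver, 1 to 2 in dKO against UCP1 KO and 0 to 5 for the interaction (5 without WT library 5). RLE scaling gave 33, 1 and 0, and a mark at 10 times left 30 and 3. The muscle score difference was -1.94 with a pseudocount of 0.01 and -2.23 to -1.71 without 1 library.

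The covariate is the mean of 10 muscle genes and so takes up their own differences, and with it the called genes Tnni2 (0.106), Myh4 (0.013) and Mybpc2 (0.066) and the uncalled Actn3 (0.385), Myh1 (0.368), Mylpf (0.273) and Hrc (0.249) turned positive. Of 43 called, ranked or marker genes, 9 changed direction in 14 of 673 values over 16 settings. Fgf21 was called in each of the 16. Depth limits Fut1, Fam184a and other genes near 1 CPM.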
